A study of Homo sapiens with 6 samples.

Results

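Gene expression in the 8505C thyroid cancer cell line was compared between cells given a CRABP2-overexpressing vector and cells given an empty vector. The genes compared were the protein-coding genes with an expression value of at least 1 FPKM (fragments scaled to exon length and library depth) in 1 or both of these libraries. This rule took 10234 of the 19945 protein-coding identifiers and of the 58884 identifiers of all kinds in the deposited table, and they are called measured here. For each gene the difference is log2(FPKM + 1) with the CRABP2 vector minus log2(FPKM + 1) with the empty vector, so a difference of 1 is a 2-fold change for abundant genes and understates the change of low ones.

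The series holds 6 libraries of total RNA from 3 human thyroid cancer cell lines, with 1 library for each condition. 8505C is an established line from an anaplastic thyroid carcinoma, a dedifferentiated and fast-growing tumour type. The other lines, BHT-101 (anaplastic) and FTC-133 (follicular), were given siCRABP2, an interfering RNA that lowers CRABP2, or siControl, its control. With 1 library a side, no difference in 8505C has a replicate check, and no test across genes was made. Not given in the sources used here were whether the vector cultures were clones or pools, whether the vectors were transient or integrated, how long after transfection RNA was taken, and which part of the CRABP2 transcript the vector carries.

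CRABP2 is a small cytosolic protein that binds retinoic acid, the active acid of vitamin A, and hands it to nuclear retinoic acid receptors. These receptors pair with retinoid X receptors on DNA, where their classical element is a pair of directly repeated core motifs, and they switch on genes of differentiation and of retinoid breakdown. A related carrier, FABP5, can bring retinoic acid to another nuclear receptor, PPARD. In epithelial tissues retinoids are known for limiting squamous keratins and for opposing growth, and in many tumours CRABP2 is expressed out of its usual place.

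The read totals recovered from the deposited values were 22849556 for the empty vector and 22084110 for the CRABP2 vector. Over 12195 genes the Pearson correlation of log2(FPKM + 1) between the 8505C libraries was 0.979, which lay between that of the FTC-133 pair (0.972) and that of the BHT-101 pair (0.996). Correlations of 8505C with libraries of the other lines were 0.729 to 0.770. These correlations are across genes, which are not independent replicates. Of 18 thyroid identity genes only 4 were measured, led by the thyroid and lung factor NKX2-1 at 16.7 FPKM under the empty vector against 13.1 FPKM under the CRABP2 vector. Thyroglobulin (TG) was at 0.0472 and 0.0163 FPKM, and the TSH receptor (TSHR) was at 0 in both libraries. Among epithelial markers KRT8 (45.8 and 76.3 FPKM), KRT18 (102 and 158 FPKM) and KRT7 (57.4 and 108 FPKM) were expressed, while CDH1, EPCAM and KRT19 were each below 1 FPKM. Of 12 leukocyte markers only CD14 was measured (16.4 and 12.9 FPKM), and the pan-leukocyte gene PTPRC was at 0.0143 and 0.00988 FPKM. The summed level of the 12 leukocyte markers was 16.8 and 13.6 FPKM, that of 9 endothelial markers 27.8 and 18.6 FPKM, that of 12 neural and melanocyte markers 4.88 and 3.54 FPKM, and that of 7 erythroid markers 0 and 0.0393 FPKM.

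The vector's own gene separated the libraries. CRABP2 (ENSG00000143320, GRCh38 chromosome 1, 156699606 to 156705816, minus strand) was at 0.607 FPKM from 15 reads under the empty vector against 38.0 FPKM from 909 reads under the CRABP2 vector. Its difference of 4.60 was the largest of any measured gene with at least 5 FPKM in 1 or both libraries. On reads scaled for depth, its log2 ratio had a 95% exact (Clopper-Pearson) interval of 5.24 to 6.81. Such intervals, called counting intervals here, cover counting error only, since without molecular identifiers reads are not independent molecules. For comparison, the siControl libraries of the other lines held 27.3 FPKM (BHT-101) and 8.94 FPKM (FTC-133). Transcript from the vector and from the cells' own gene cannot be told apart.

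By size, 130 of the 10234 measured genes were higher by at least 1 with the CRABP2 vector (1.27%) and 121 were lower by at least 1 (1.18%). Counts past this rule in the lists below are to be read beside these shares. The median difference was 0.02, 84.7% of measured genes lay within 0.5 of no change, and the 5th and 95th percentiles were -0.57 and 0.62. The higher genes had a median of 2.02 FPKM under the empty vector against 8.28 FPKM under the CRABP2 vector, and 41 of them were below 1 FPKM with the empty vector. The lower genes had a median of 9.98 FPKM under the empty vector against 3.30 FPKM under the CRABP2 vector, and 30 of them were below 1 FPKM with the CRABP2 vector. The direction of these contrasts is set by the rule that picked the genes. At 4-fold or more on FPKM + 1, which is stricter than 4-fold on FPKM itself, there were 17 higher and 6 lower genes. The counting interval left out no change for 129 higher and 118 lower genes, and the other 1 and 3 had no recovered reads. Just inside and just outside the rule, 20 genes differed by 1 to 1.02 in either direction and 19 by 0.98 to 1.

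**Figure D1:**
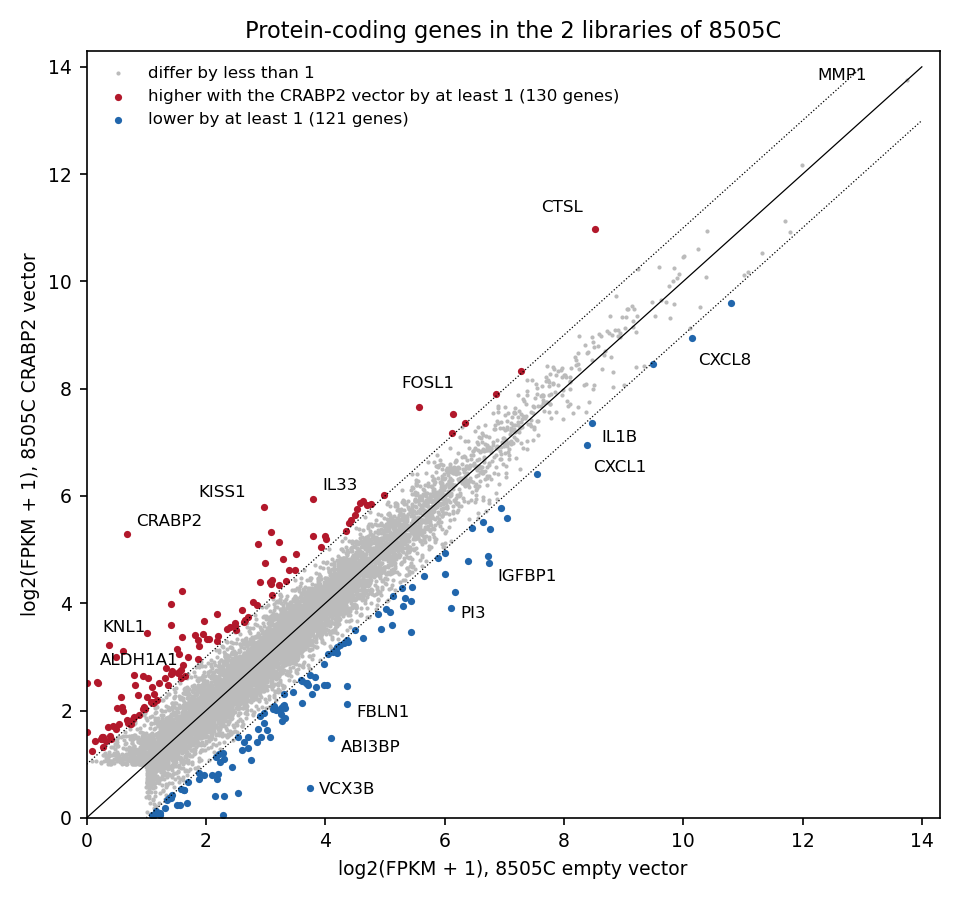
Each point is a measured protein-coding gene, with log2(FPKM + 1) in the empty vector library on the horizontal axis and in the CRABP2 vector library on the vertical axis. Dotted lines mark a difference of 1, and the 130 higher genes are in red. CTSL is a red point near the top, and MMP1 lies on the diagonal at the upper right.

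The most abundant transcript in both libraries was MMP1, the interstitial collagenase, and its level was nearly the same in both. It was at 13763 FPKM under the empty vector against 13736 FPKM under the CRABP2 vector, or 2.71% of reads in each. The translation factor EEF1A1 followed at 4056 and 4631 FPKM. The other 8 of the 10 genes with the highest mean were 6 mitochondrially encoded transcripts, all below 0 except that MT-CO3 turned from -0.59 to 0.11 under quantile normalization, and the ribosomal protein genes RPL7 (1347 and 1957 FPKM) and RPS12 (1212 and 1565 FPKM).

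Secreted ligands and surface proteins were present among the 20 genes with the largest positive differences at 5 FPKM or more in 1 or both libraries. KISS1, the precursor of the kisspeptin peptides, was at 6.87 FPKM under the empty vector against 54.3 FPKM under the CRABP2 vector (2.81). The alarmin IL33, a nuclear cytokine released by damaged cells, was at 12.9 and 60.9 FPKM (2.15), and the WNT antagonist DKK1 was at 8.39 and 34.2 FPKM (1.90). The matricellular protein periostin (POSTN) was at 6.94 and 25.9 FPKM (1.76). KISS1 was below 1 FPKM in all 4 libraries of the other lines. Syndecan-1 (SDC1), a heparan sulfate proteoglycan of epithelial surfaces, was at 7.49 and 39.2 FPKM (2.24).

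Signalling and transcription genes formed another share of these 20. FOSL1, an AP-1 transcription factor subunit that accumulates under MAPK signalling, was at 46.5 FPKM under the empty vector against 202 FPKM under the CRABP2 vector (2.10), with a counting interval of 2.05 to 2.19. RGS4, which shortens G protein signalling, was at 6.33 and 33.6 FPKM (2.24), and SPHK1, which makes sphingosine 1-phosphate, was at 2.03 and 9.33 FPKM (1.77). The potassium channel KCNK1 was at 2.03 and 17.8 FPKM (2.63) and PKIB, an inhibitor of protein kinase A, at 1.66 and 14.9 FPKM (2.58). Its relative PKIA was also higher, at 9.49 and 23.7 FPKM (1.24). The cell division genes KNL1 and CDK1, the squamous keratins KRT16 and KRT14, the serpin SERPINB3 and the protease CTSL were also among these 20 and are described with their groups. FRMD3 was at 0.918 and 5.28 FPKM (1.71), and GAGE12J and TM4SF19 were below 1 FPKM with the empty vector.

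Genes of the extracellular space were present among the 20 with the largest negative differences at 5 FPKM or more in 1 or both libraries. ABI3BP, a matrix protein, was at 16.2 FPKM from 4061 reads under the empty vector against 1.80 FPKM from 436 reads under the CRABP2 vector (-2.62). FBLN1, a basement membrane and elastic fibre protein, was at 19.6 and 3.35 FPKM (-2.25), SVEP1, a large adhesion protein, at 15.3 and 4.58 FPKM (-1.55), and SULF1, which trims heparan sulfate, at 8.69 and 2.48 FPKM (-1.48). The elastase inhibitor PI3 was at 68.2 and 14.1 FPKM (-2.19). IGFBP1, which binds insulin-like growth factors, was at 106 and 26.1 FPKM (-1.98), and TNFRSF11B, the decoy receptor osteoprotegerin, at 7.42 and 1.84 FPKM (-1.57).

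Enzymes and membrane proteins made up most of the remaining negative differences. ASS1, which makes argininosuccinate in arginine synthesis, was at 105 FPKM under the empty vector against 28.6 FPKM under the CRABP2 vector (-1.83). CPD, a carboxypeptidase of the trans-Golgi, was at 83.5 and 26.8 FPKM (-1.60), the reticulum autophagy receptor RETREG1 at 42.5 and 10.1 FPKM (-1.97) and FRMD8 at 71.3 and 17.5 FPKM (-1.97). The lysosomal membrane protein LAMP3 was at 33.8 and 11.1 FPKM (-1.53). LAMP3, RETREG1, PI3 and SIRPB1 (12.7 and 3.98 FPKM) had under 2 FPKM in every library of the other lines. C4BPA, a soluble complement inhibitor, was at 5.78 and 1.12 FPKM (-1.68), and the membrane complement inhibitor CD55 at 132 and 47.3 FPKM (-1.46).

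**Figure D2:**
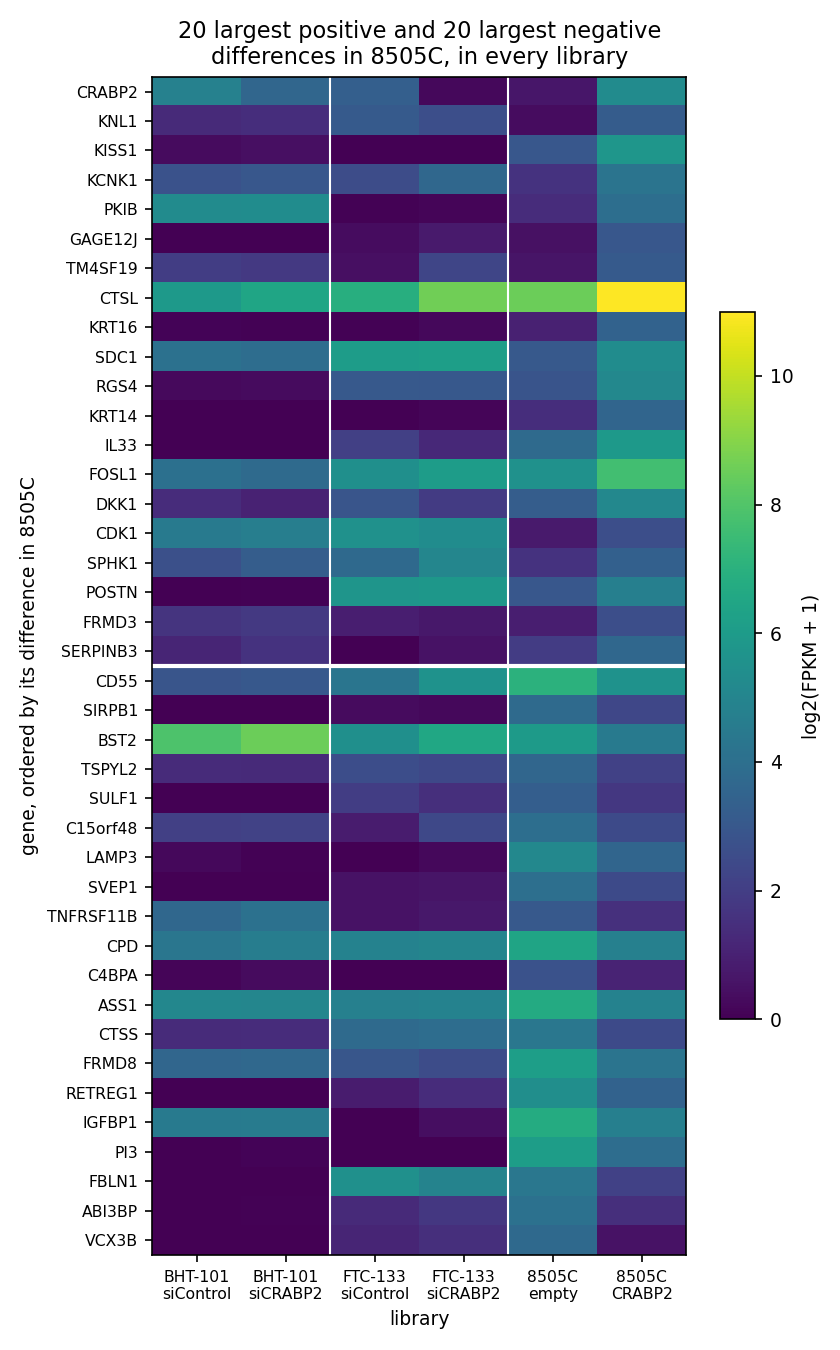
Rows are the 20 genes with the largest positive (above the white line) and the 20 with the largest negative differences in 8505C among genes with at least 5 FPKM; columns are the 6 libraries and colour is log2(FPKM + 1). CTSL is the brightest row, at 2026 FPKM with the CRABP2 vector, and many of the rows are dark in BHT-101 and FTC-133.

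Retinoid genes were compared because CRABP2 acts in their pathway, in the order carriers and enzymes, receptors, targets. Over all 20 listed carriers and enzymes 9 lay above 0, 8 below and 3 at 0, with a median of 0. Of the 20, 9 were measured, 2 were higher by at least 1 (CRABP2 itself and ALDH1A1) and 1 was lower (RBP4). Those are 22.2% and 11.1% of the measured genes, against 1.27% and 1.18% of all measured genes. Each of them was measured only through the library in which it was higher, so these counts are a description. ALDH1A1, which oxidises retinal to retinoic acid, was at 0.123 FPKM from 8 reads under the empty vector against 4.82 FPKM from 302 reads under the CRABP2 vector (2.37). RBP4, the plasma carrier of retinol, was at 1.14 FPKM from 38 reads and 0.0311 FPKM from 1 read (-1.05). The other retinoic acid-making enzyme measured, ALDH1A3, was at 8.37 and 6.35 FPKM (-0.35), and the retinol dehydrogenase RDH10 at 11.3 and 7.71 FPKM (-0.49). FABP5 was at 26.2 and 38.2 FPKM (0.53). The sister carrier CRABP1 was at 0.0913 FPKM with the empty vector and at 0 with the CRABP2 vector.

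Of 13 receptors and partners 12 were measured, none differed by 1 or more, and 9 lay below 0 (median -0.25, against 0.02 over all measured genes). The receptor RARA was at 6.28 FPKM under the empty vector against 5.53 FPKM under the CRABP2 vector (-0.16), RXRA at 7.64 and 5.51 FPKM (-0.41) and the coactivator NCOA3 at 25.4 and 16.9 FPKM (-0.56). RARB, a receptor that is itself a classical retinoic acid target, was at 4.92 and 8.41 FPKM (0.67), and RARG was at 1.49 and 2.52 FPKM (0.50). Of 23 genes known to be induced by retinoic acid 9 were measured, 5 lay above 0 and 4 below, none differed by 1 or more, and the median was 0.01. RAI14 had the largest difference, at 42.8 and 83.8 FPKM (0.95), while DHRS3, which turns retinal back to retinol, was at 38.8 and 27.6 FPKM (-0.48) and TGM2 at 41.3 and 41.0 FPKM (-0.01). CYP26A1, the retinoic acid hydroxylase that is a sensitive marker of receptor activity, was at 0 in both libraries. CYP26B1 was at 0.00873 and 0.0451 FPKM, and STRA6 had 0 and 13 reads.

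Promoter windows of RefSeq (GRCh38.p14), from 250 bases before to 50 bases after the start, were available for 8238 measured genes. The receptor core motif AGGTCA, searched on both strands, was in 13 of 96 higher genes with a window (13.5%), in 12 of 80 lower genes (15%) and in 12.8% of all measured genes. Its direct repeat with a spacer of 5 bases was in none of the 8238 windows and in 2 of the 35116 windows of the whole table. A match is a description of the sequence, and no match says only that these letters are not in the window. The AP-1 letters TGACTCA, to which FOSL1-containing dimers bind, were in 8 of 96 higher genes (8.33%), in 9 of 80 lower genes (11.2%) and in 4.78% of measured genes.

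Cell division genes were low in both libraries and less so with the CRABP2 vector. Of all 43 genes listed for mitosis and the kinetochore, 42 were above 0, with a median difference of 0.63. Because 16 of them were measured only through the CRABP2 library, counts over the 28 measured genes are a description: all 28 were above 0 and 10 were higher by at least 1, against 1.27% of all measured genes. The summed level of the 43 genes was 61.5 FPKM under the empty vector against 161 FPKM under the CRABP2 vector. The same sum was 728 FPKM in BHT-101 and 1978 FPKM in FTC-133 with siControl, so both 8505C libraries stood below the other lines.

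Among the mitotic genes, the kinetochore scaffold KNL1 was represented by 68 reads with the empty vector and 1880 reads with the CRABP2 vector. CDK1, the kinase that drives entry into mitosis, had 65 and 461 reads (0.724 and 5.31 FPKM, 1.87). UBE2C, which ubiquitinates cyclins, was at 0.749 and 4.58 FPKM (1.67), the spindle protein HMMR at 0.501 and 3.17 FPKM (1.47), the anaphase activator CDC20 at 1.33 and 4.68 FPKM (1.29) and the CDK1 partner CKS2 at 23.02 and 57.5 FPKM (1.28). The proliferation marker MKI67 was below 1 FPKM in both libraries, with 85 and 267 reads. KNL1 stood apart within the group, since the next largest difference was that of CDK1.

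Mitotic genes are known to share the cell cycle homology element TTTGAA and CCAAT boxes in their promoters, which is why the following windows are shown. Each is the 250 bases before the start of the gene, 5′ to 3′ on the gene's strand, with both motifs in capitals on either strand (CDC20 chr1:43358731-43358980, HMMR chr5:163460382-163460631, CKS2 chr9:89310945-89311194, GRCh38.p14).
CDC20: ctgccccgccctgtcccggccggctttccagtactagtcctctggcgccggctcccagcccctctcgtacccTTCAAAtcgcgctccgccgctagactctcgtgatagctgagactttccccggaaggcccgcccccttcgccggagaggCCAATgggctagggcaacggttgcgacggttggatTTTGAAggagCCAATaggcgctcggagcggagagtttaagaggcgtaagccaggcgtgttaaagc
HMMR: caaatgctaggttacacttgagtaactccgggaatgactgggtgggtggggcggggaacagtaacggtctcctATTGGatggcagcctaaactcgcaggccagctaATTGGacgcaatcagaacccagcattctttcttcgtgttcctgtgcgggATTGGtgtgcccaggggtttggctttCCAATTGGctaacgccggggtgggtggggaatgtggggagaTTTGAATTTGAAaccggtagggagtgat
CKS2: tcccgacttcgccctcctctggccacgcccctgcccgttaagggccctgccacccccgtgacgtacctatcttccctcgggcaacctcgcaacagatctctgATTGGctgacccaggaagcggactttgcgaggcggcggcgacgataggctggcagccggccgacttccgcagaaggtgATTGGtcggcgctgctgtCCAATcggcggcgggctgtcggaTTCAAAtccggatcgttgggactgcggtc
TTTGAA stood 65 bases and, on the opposite strand, 178 bases before the start in CDC20, 28 and 22 bases before it in HMMR and, on the opposite strand, 29 bases before it in CKS2. Among measured mitotic genes with a window, 16 of 22 held TTTGAA (72.7%) against 13.3% of all measured genes, and 18 of 22 held CCAAT (81.8%) against 43.6%. TTTGAA was in 1 of 23 measured DNA replication genes (4.35%), so the 2 groups of cell cycle genes differ in this sequence although their levels lay on the same side of 0. TTTGAA was in 19 of 96 genes higher by at least 1 (19.8%) and in 14 of 80 lower genes (17.5%). CCAAT was in 44 of the 96 (45.8%) and in 35 of the 80 (43.75%). Over the windows of the whole table TTTGAA was in 15.2% and CCAAT in 34.6%.

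DNA replication genes lay on the same side of 0, with a smaller median. Of all 34 listed genes 31 were above 0, with a median of 0.40, and 7 were measured only through the CRABP2 library. The ribonucleotide reductase subunit RRM2 was at 0.311 and 1.87 FPKM (1.13), the primase subunit PRIM1 at 1.27 and 3.58 FPKM (1.02) and the helicase subunit MCM7 at 8.22 and 15.2 FPKM (0.81). The clamp PCNA was at 49.1 and 57.8 FPKM (0.23), and RRM1 and POLA1 lay below 0. Among 18 measured G1 cyclins, kinases and their inhibitors, 10 were above 0 and E2F7, a repressor of the E2F family, was higher by at least 1 (2.05 and 6.16 FPKM, 1.23). CDK4 was at 29.6 and 48.8 FPKM (0.70) and the inhibitor CDKN1A at 23.9 and 17.2 FPKM (-0.45). Of 19 measured p53 targets 12 lay below 0 (median -0.21) and none differed by 1 or more, with GADD45A (8.50 and 15.9 FPKM) and PLK2 (8.45 and 17.0 FPKM) at the upper end. In the BCL2 family 10 of 14 measured genes were above 0 (median 0.33), including the survival factor MCL1 at 228 and 328 FPKM (0.53), and none reached a difference of 1.

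**Figure D3:**
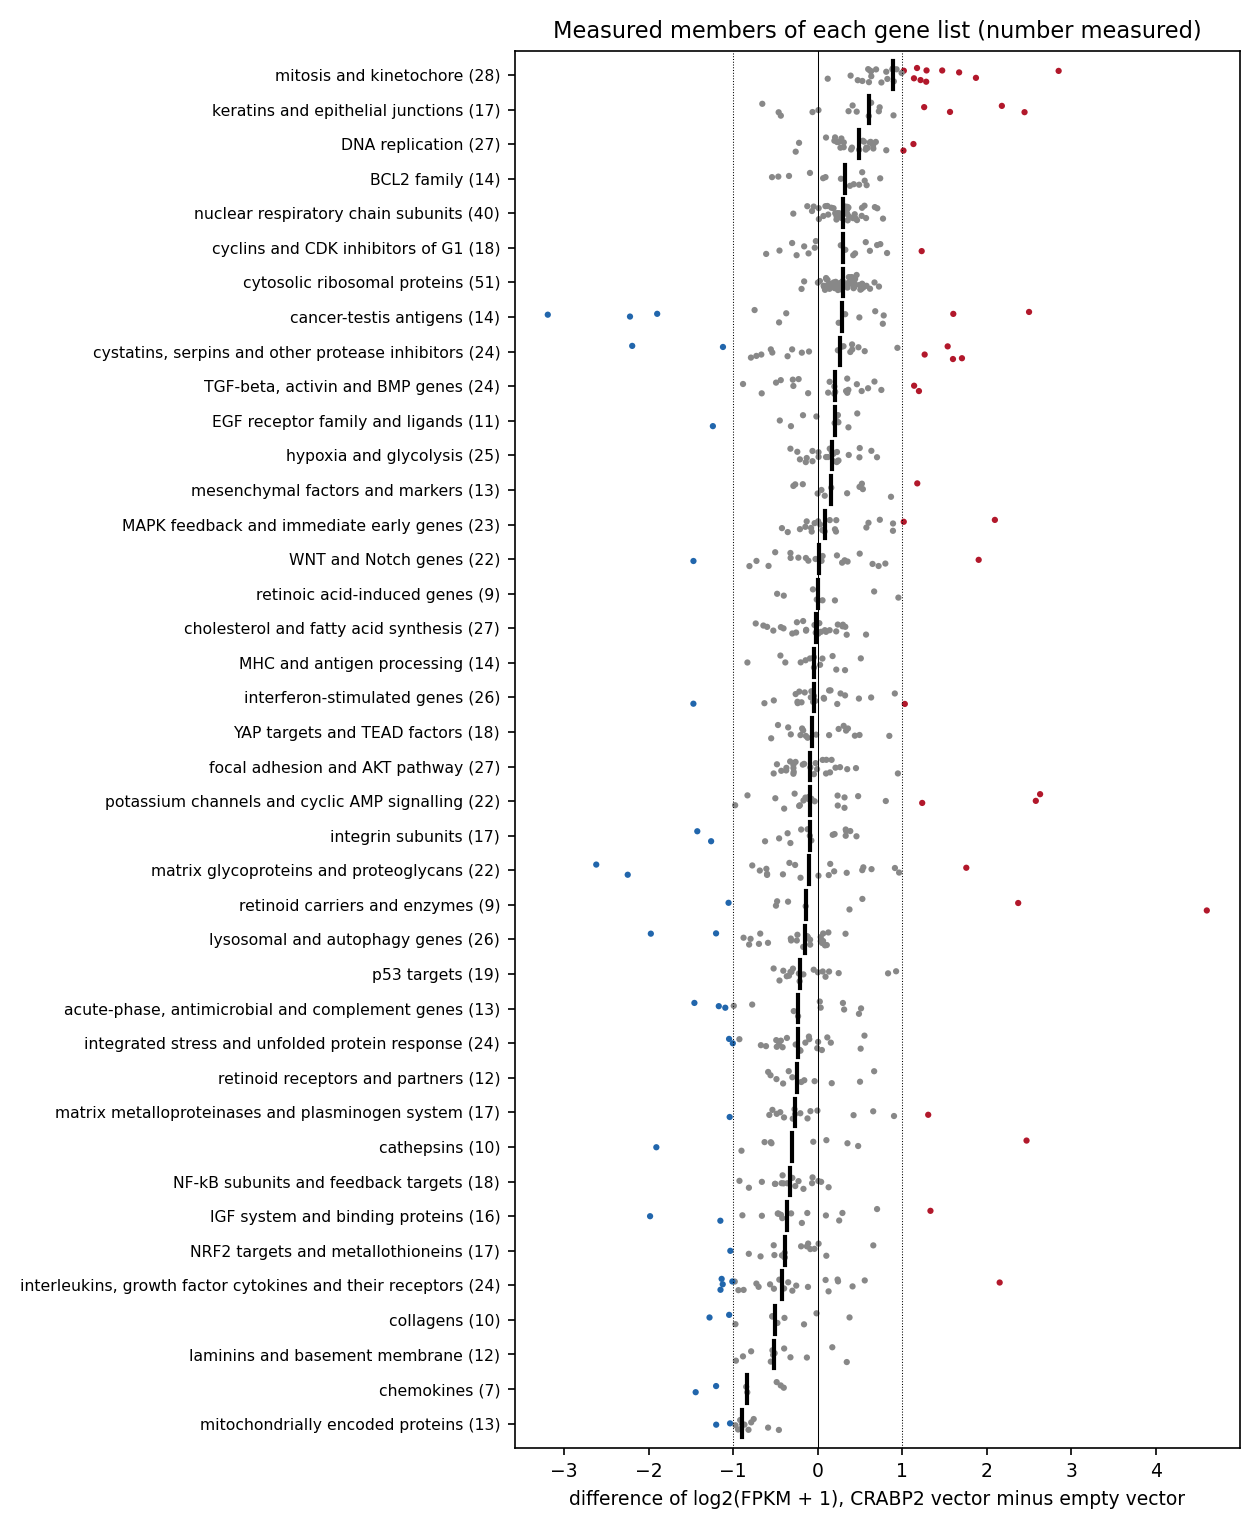
Each row is a gene list with at least 5 measured genes, each point a measured member placed by its difference of log2(FPKM + 1), and the thick bar the median; dotted lines mark -1 and 1. Mitosis and kinetochore genes lie highest (median 0.89 over the 28 measured), and mitochondrially encoded genes (-0.89) and chemokines (-0.83) lowest.

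Several inflammatory cytokines were lower with the CRABP2 vector. Over all 21 listed chemokines 7 lay above 0, 10 below and 4 at 0, with a median of 0. All 7 measured chemokines of 21 listed lay below 0 (median -0.83), and 2 were lower by at least 1, against 1.18% of all measured genes. Of these 7, 1 was measured only through the empty vector library. CXCL8, which attracts neutrophils, was at 1136 FPKM under the empty vector against 494 FPKM under the CRABP2 vector (-1.20), and CXCL1 was at 333 and 122 FPKM (-1.44). CXCL2 was at 40.2 and 22.2 FPKM (-0.83), and the monocyte attractant CCL2 at 4.32 and 1.96 FPKM (-0.85). CXCL1, CXCL2 and CXCL3 are close copies, so the split of reads between them is uncertain.

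Among 24 measured interleukins, growth factor cytokines and receptors, 17 lay below 0 (median -0.43), 4 were lower by at least 1 and 1, IL33, was higher, against 1.18% and 1.27% of all measured genes. The 4 were IL1A (187 and 83.5 FPKM, -1.15), IL6 (49.1 and 21.8 FPKM, -1.14), IL1B (355 and 163 FPKM, -1.12) and the granulocyte factor CSF3 (17.2 and 8.06 FPKM, -1.01). Receptors of the IL6 family stood close to the threshold, with OSMR at 93.7 and 47.0 FPKM (-0.98) and the shared chain IL6ST at 117 and 60.5 FPKM (-0.94). LIF was at 23.3 and 14 FPKM (-0.70). IL18 (0.41) and IL15 (0.56) lay on the other side of 0 from low levels. IL33 thus ran opposite to IL1A, IL1B and IL6 within 1 culture pair.

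Feedback genes of NF-kB, the transcription factor that drives these cytokines, lay below 0 as well. Of 18 measured genes 15 lay below 0 (median -0.33) and none differed by 1 or more. The adhesion molecule ICAM1 was at 48.1 and 24.9 FPKM (-0.92), NFKBIZ, a nuclear cofactor, at 28.6 and 15.8 FPKM (-0.81), the prostaglandin synthase PTGS2 at 52.1 and 32.6 FPKM (-0.66) and the inhibitor NFKBIA at 74.7 and 55.3 FPKM (-0.43). The subunits themselves differed little, with RELA at 20.6 and 19.7 FPKM (-0.06) and NFKB1 at 11.7 and 9.54 FPKM (-0.26).

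The chemokine promoters are shown because they hold the same kappa B letters, GGAATTTCC, at a similar place. Windows are the 250 bases before the start on the gene's strand, with GGAATTTCC in capitals (CXCL8 chr4:73740319-73740568, CXCL1 chr4:73869143-73869392, CXCL2 chr4:74099196-74099445, GRCh38.p14).
CXCL8: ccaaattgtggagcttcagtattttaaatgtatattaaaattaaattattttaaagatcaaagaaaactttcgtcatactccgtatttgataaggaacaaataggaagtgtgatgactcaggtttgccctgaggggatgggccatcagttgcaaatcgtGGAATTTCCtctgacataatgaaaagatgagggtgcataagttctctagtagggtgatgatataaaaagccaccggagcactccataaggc
CXCL1: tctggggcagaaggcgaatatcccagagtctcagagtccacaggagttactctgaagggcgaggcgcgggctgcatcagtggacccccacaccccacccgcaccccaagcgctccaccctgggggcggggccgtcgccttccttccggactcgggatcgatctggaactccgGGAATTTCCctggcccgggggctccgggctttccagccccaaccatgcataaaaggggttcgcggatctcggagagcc
CXCL2: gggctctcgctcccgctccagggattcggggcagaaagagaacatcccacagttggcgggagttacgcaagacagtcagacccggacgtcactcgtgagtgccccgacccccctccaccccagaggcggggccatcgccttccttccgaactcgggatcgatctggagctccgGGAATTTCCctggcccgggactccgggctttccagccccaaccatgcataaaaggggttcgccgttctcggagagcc
The match lay 91 bases before the start in CXCL8, 78 in CXCL1 and 77 in CXCL2. GGAATTTCC was in 4 of 5 measured chemokines with a window (80%) and in 5 of 16 measured NF-kB genes (31.2%), against 0.583% of all measured genes and 0.461% of all windows. It was in 3 of 80 genes lower by at least 1 (3.75%), in 1 of 96 higher genes (1.04%) and in none of 17 measured interleukins and receptors with a window. The 4 chemokines were CXCL8 and the close copies CXCL1, CXCL2 and CXCL3, so their share does not rest on 4 independent promoters. Factor binding was not measured in this series.

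**Figure D4:**
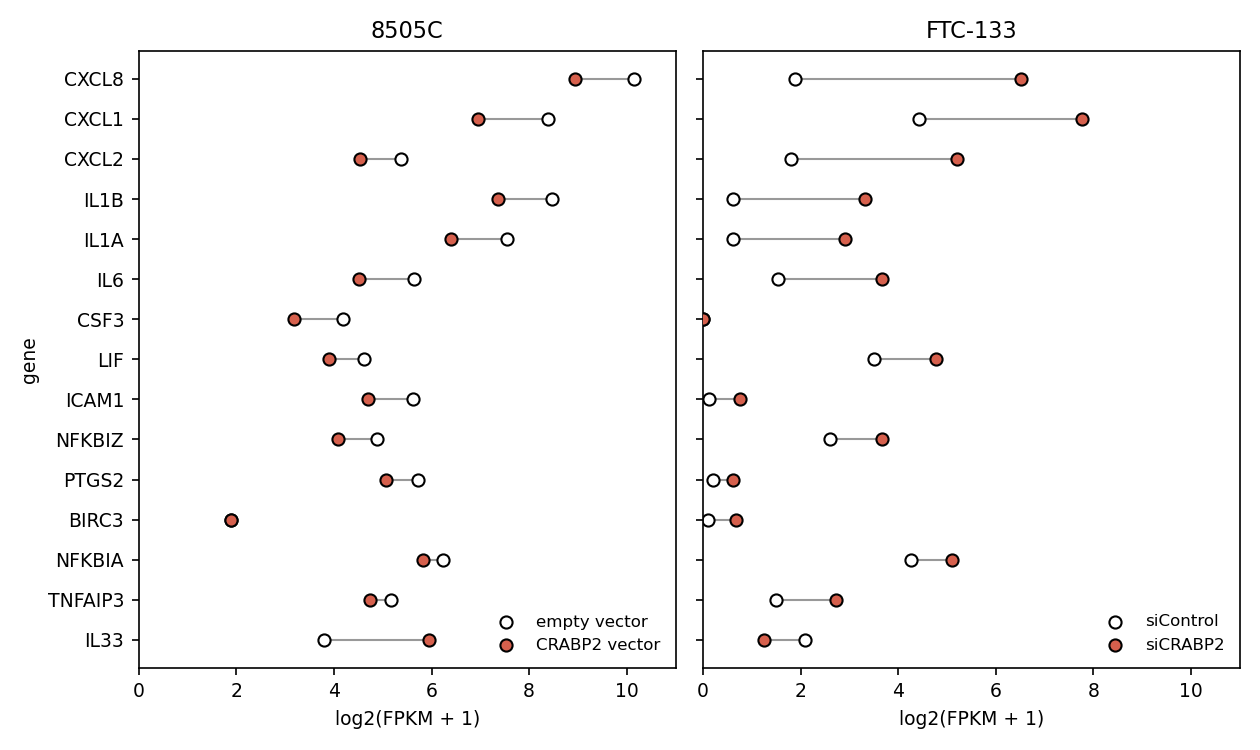
Levels as log2(FPKM + 1) of 15 cytokine and NF-kB genes, chosen after their values were seen, in 8505C (left; open circles empty vector, filled circles CRABP2 vector) and FTC-133 (right; open circles siControl, filled circles siCRABP2). CXCL8 is at 1136 and 494 FPKM in 8505C and at 2.72 and 90.3 FPKM in FTC-133, while IL33 runs the other way from CXCL8 in each line.

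Interferon and antigen presentation genes did not follow the cytokines. Of 26 measured interferon-stimulated genes 11 lay above 0 and 15 below (median -0.05). BST2, which tethers budding virus, was at 63.3 FPKM under the empty vector against 22.2 FPKM under the CRABP2 vector (-1.47), while SAMD9 was at 5.31 and 11.9 FPKM (1.03). The 14 measured MHC and antigen processing genes had a median of -0.04 and none reached a difference of 1. Several complement genes were lower. C3 was at 32.2 and 15.7 FPKM (-0.99), and the C1 proteases C1R (11.8 and 4.69 FPKM, -1.17) and C1S (7.71 and 3.08 FPKM, -1.09) and the inhibitor CD55 passed the size rule. They belong to a list of acute-phase, antimicrobial and complement genes in which 7 of 13 measured genes lay below 0 (median -0.23), with S100A9 at 40.1 and 56.7 FPKM (0.49). In that list 3 of the 13 (23.1%) were lower by at least 1, against 1.18% of all measured genes.

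Keratins and junction proteins were higher on balance. Of 17 measured genes of 33 listed, 13 lay above 0 (median 0.60), and 4 were higher by at least 1, against 1.27% of all measured genes. The stress and basal keratins KRT16 (1.01 and 9.94 FPKM, 2.45), KRT14 (1.67 and 11.1 FPKM, 2.18) and KRT17 (1.05 and 5.06 FPKM, 1.57) and the desmosome anchor DSP (5.10 and 13.6 FPKM, 1.26) made up these 4. KRT14, KRT16 and KRT17 resemble each other and have pseudogene copies, so reads among them are uncertain. KRT7, KRT8, KRT18 and KRT80 lie in a stretch of chromosome 12, and DSG2 and DSC3 in a stretch of chromosome 18. Most genes of both stretches lay above 0, and the part of those shifts in these differences was not tested. The tight junction protein CLDN1 lay lower, at 66.6 and 41.9 FPKM (-0.65). Over all 33 listed genes 21 lay above 0, 9 below and 3 were at 0 in both libraries, with a median of 0.05.

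Squamous serpins, which inhibit proteases in stratified epithelia, were higher alongside those keratins. SERPINB3 was at 2.92 and 11.8 FPKM (1.71), SERPINB4 at 3.57 and 12.8 FPKM (1.60), SERPINB7 at 0.415 and 3.11 FPKM (1.54) and SERPINB2 at 1.68 and 5.44 FPKM (1.27). SERPINB3 and SERPINB4 are near-identical copies. All 4 lie on chromosome 18, where most genes lay above 0 as given later, and the part of that shift in their difference was not tested. Mesenchymal genes had a median of 0.16, with 9 of 13 measured above 0. The repressor SNAI2 was at 1.18 and 3.94 FPKM (1.18) and vimentin (VIM) at 151 and 192 FPKM (0.35). N-cadherin (CDH2, also on chromosome 18) was at 15.8 and 23.2 FPKM (0.52) and ZEB1 at 7.25 and 8.22 FPKM (0.16). Keratin and mesenchymal genes therefore both lay above 0 at their medians.

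Matrix and basement membrane genes lay mostly below 0. Over all 25 listed collagens 5 lay above 0 and 19 below, with a median of -0.06, and over all 16 laminin and basement membrane genes 4 lay above and 11 below, with a median of -0.36. In each of these lists 1 measured gene was measured only through the empty vector library. Of 10 measured collagens 9 lay below 0 (median -0.51), and COL6A2 (9.01 and 3.12 FPKM, -1.28) and the fibrillar COL3A1 (2.67 and 0.778 FPKM, -1.05) were lower by at least 1. Those 2 are 20% of the measured collagens, against 1.18% of all measured genes. Of 12 measured laminin and basement membrane genes 10 lay below 0 (median -0.52) and none reached a difference of -1. LAMB1 was at 63.5 and 33.9 FPKM (-0.88), LAMC1 at 43.0 and 24.5 FPKM (-0.79) and agrin (AGRN) at 14.01 and 6.68 FPKM (-0.97). LAMA3 and LAMA1, both on chromosome 18, lay above 0. These genes are long, and longer transcripts lay lower in general, as given later. With the trend on exon length removed the laminin median was -0.40.

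Matrix glycoproteins were split, with 11 of 22 measured genes above 0 and 11 below (median -0.10). Against ABI3BP and FBLN1 stood POSTN, the proteoglycan VCAN (0.978 and 2.86 FPKM, 0.96), CTGF (51.9 and 98.8 FPKM, 0.91) and fibronectin (FN1, 51.6 and 74.7 FPKM, 0.53). Integrins, the receptors for these proteins, had a median of -0.09 over 17 measured subunits. ITGAV (33.1 and 13.2 FPKM, -1.26) and its partner ITGB3 (6.60 and 1.83 FPKM, -1.42), which together form a vitronectin receptor, were the 2 that passed the size rule, both lower. Those 2 are 11.8% of the measured subunits, against 1.18% of all measured genes. The main subunit ITGB1 was at 443 and 386 FPKM (-0.20), ITGA3 at 121 and 113 FPKM (-0.09) and ITGA5 at 27.0 and 35.6 FPKM (0.39). None of 27 measured focal adhesion and AKT pathway genes reached a difference of 1 (median -0.09). PTK2 was at 17.4 and 18.2 FPKM (0.06), AKT1 at 13.2 and 12.998 FPKM (-0.02) and caveolin-1 (CAV1) at 24.3 and 47.9 FPKM (0.95).

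Proteases and their inhibitors held some of the largest differences at high levels. Cathepsin L (CTSL) was at 365 FPKM from 15433 reads under the empty vector against 2026 FPKM from 82863 reads under the CRABP2 vector (2.47, counting interval 2.45 to 2.50). Cathepsin S (CTSS) was at 19.6 and 4.48 FPKM (-1.91), cathepsin D (CTSD) at 50.6 and 26.6 FPKM (-0.90) and cathepsin B (CTSB) at 186 and 237 FPKM (0.35). Cathepsins are lysosomal proteases, and the 10 measured ones had a median of -0.30, with 4 above 0. The summed level of the 15 listed cathepsins was 852 FPKM and 2478 FPKM, while 6 of the 10 measured members lay below 0 and 1, CTSS, was lower by at least 1.

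Other lysosomal and autophagy genes lay below 0 in 17 of 26 measured cases (median -0.15). Acid alpha-glucosidase (GAA) was at 8.76 and 3.24 FPKM (-1.20), LAMP1 at 42.7 and 22.8 FPKM (-0.88) and prosaposin (PSAP) at 451 and 260 FPKM (-0.79). IGF2R, the receptor that carries enzymes to lysosomes, was at 42.8 and 18.7 FPKM (-1.15). Of 17 measured metalloproteinase and plasminogen genes 13 lay below 0 (median -0.27). MMP13 was at 1.98 and 0.448 FPKM (-1.04), the urokinase PLAU at 267 and 202 FPKM (-0.40), and ADAMTS1 at 1.69 and 5.67 FPKM (1.31). Among 24 measured protease inhibitors 4 were higher by at least 1, the serpins named above, and 2 lower, PI3 and TIMP2 (98.9 and 45.0 FPKM, -1.12), against 1.27% and 1.18% of all measured genes.

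Lists of growth factor pathways had medians between -0.37 and 0.20. Among 23 measured MAPK feedback and immediate early genes the median was 0.08, and FOSL1 and the phosphatase DUSP5 (80.5 and 164 FPKM, 1.02) were higher by at least 1. Those 2 are 8.70% of the measured members, against 1.27% of all measured genes. DUSP6, SPRY4 and ETV5, standard readouts of ERK signalling, differed by -0.07, 0.01 and -0.08. JUN was at 13.1 and 25.2 FPKM (0.89) and MYC at 19.1 and 36.2 FPKM (0.89). In the TGF-beta and BMP list 16 of 24 measured genes lay above 0 (median 0.20), and the ligand BMP2 (21.7 and 49.0 FPKM, 1.14) and the BMP target ID3 (15.1 and 35.9 FPKM, 1.20) were higher by at least 1. Those 2 are 8.33% of the 24, against 1.27% of all measured genes. ID1 was at 117 and 188 FPKM (0.67) and ID2 at 2.21 and 4.42 FPKM (0.75), while BMP4 was at 2.22 and 0.746 FPKM (-0.88).

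WNT and Notch genes were balanced, with 11 of 22 measured above 0 and 11 below (median 0.01). By at least 1, 1 was higher (DKK1, 1.90) and 1 was lower, 4.55% each, against 1.27% and 1.18% of all measured genes. Of the 22, 3 were measured only through the CRABP2 library and 2 only through the empty vector library. NOTCH3 was at 3.55 and 0.645 FPKM (-1.47), NOTCH2 at 7.88 and 4.07 FPKM (-0.81) and NOTCH1 at 4.50 and 2.33 FPKM (-0.72), so all 3 measured receptors lay below 0 and NOTCH3 alone passed the size rule. WNT7B (1.75 and 3.79 FPKM, 0.80) and WNT5A (0.420 and 1.34 FPKM, 0.72) lay above 0. In the IGF list 11 of 16 measured genes lay below 0 (median -0.37). By at least 1, 1 was higher and 2 were lower, against 1.27% and 1.18% of all measured genes. The largest negative difference of the list was that of IGFBP1 (-1.98). IGFBP3 was at 129 and 81.3 FPKM (-0.66), IGF1R at 6.65 and 4.51 FPKM (-0.47) and IGFBP6 at 7.58 and 20.6 FPKM (1.33). EGFR was at 29.3 and 29.02 FPKM (-0.01), and the ligand EPGN (8.49 and 3.02 FPKM, -1.24) was the member of its list that passed the rule. EPGN alone is 9.09% of the 11 measured members, against 1.18% of all measured genes. In the list of potassium channels and cyclic AMP signalling, KCNK1, PKIB and PKIA were the 3 of 22 measured genes higher by at least 1, against 1.27% of all measured genes. In that list 9 of the 22 lay above 0 and the median was -0.09. YAP targets and TEAD factors had a median of -0.07 with none past the rule, and ANKRD1 was at 1.61 and 2.11 FPKM (0.25).

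Stress and metabolic lists had medians between -0.39 and 0.17. Of 24 measured genes of the integrated stress and unfolded protein responses 18 lay below 0 (median -0.24), and the reticulum sensor ERN1 (11.2 and 4.89 FPKM, -1.05) and SEL1L (37.9 and 18.4 FPKM, -1.004) were lower by at least 1. Those 2 are 8.33% of the 24, against 1.18% of all measured genes. The chaperone HSPA5 was at 283 and 185 FPKM (-0.61), whereas DDIT3 was at 22.4 and 33.4 FPKM (0.55). Of 17 measured NRF2 targets and metallothioneins 14 lay below 0 (median -0.39), with the cystine transporter SLC7A11 at 18.01 and 8.29 FPKM (-1.03) and NQO1 at 27.8 and 17.0 FPKM (-0.68). TXN lay above 0, at 149 and 236 FPKM (0.66). Hypoxia and glycolysis genes (median 0.17, 18 of 25 above 0) and cholesterol and fatty acid genes (median -0.02, 13 of 27 above 0) had no member past the size rule. Lactate dehydrogenase A (LDHA) was at 299 and 350 FPKM (0.23).

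Respiratory chain genes of the mitochondrial and the nuclear genome lay on opposite sides of 0. All 13 mitochondrially encoded protein genes lay below 0 as deposited (median -0.89, and -0.87 under quantile normalization, where MT-CO3 lay above 0), and MT-ND1 (1774 and 772 FPKM, -1.20) and MT-ND2 (720 and 350 FPKM, -1.04) were lower by at least 1. Of 40 measured nuclear subunits 36 lay above 0 (median 0.30), with ATP5F1B at 209 and 341 FPKM (0.71). Cytosolic ribosomal protein genes lay above 0 in 49 of 51 cases (median 0.30), from -0.19 for RPL22 to 0.73 for RPL34, and none reached 1. Mitochondrial transcripts took up 2.68% and 1.61% of the reads. In the other lines the 13 mitochondrial genes had medians of -0.26 (BHT-101) and -0.62 (FTC-133) with siCRABP2.

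Transcript length moved with these groups. Over genes with at least 5 FPKM the median difference went from 0.18 in the fifth of genes with the shortest exon length to 0.09, 0.03, -0.03 and -0.12 in the fifth with the longest. The Spearman correlation of the difference with exon length was -0.27, and with GC content -0.08, across genes. With the length trend removed the median was 0.18 for ribosomal protein genes, 0.16 for nuclear respiratory subunits, -1.11 for mitochondrial genes, 0.82 for measured mitotic genes and -1.03 for chemokines.

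Genes also differed by where they lie in the genome. On chromosome 18, 78 of 83 genes with at least 5 FPKM lay above 0 (median 0.43), and on chromosome 21, 52 of 64 did (median 0.29). Chromosomes 17 (-0.16) and X (-0.10) had the lowest nuclear medians. In the other lines chromosome 18 had medians of 0.06 (BHT-101) and 0.07 (FTC-133). Stretches of neighbouring genes with a shared shift, searched after the values were seen with windows of 10 genes and a median past 0.5 in either direction, numbered 8 upward (123 genes) and 3 downward (44 genes). Upward stretches included chromosome 18 from 41955206 to 80147523 (34 genes, median 0.54), chromosome 12 from 54497711 to 56258391 (17 genes, 0.57) and chromosome 3 from 15427355 to 25597932 (14 genes, 0.52). The chromosome 3 stretch ends at RARB, and the upward stretch of chromosome 12 from 51244558 to 53102345 holds KRT7, KRT8 and IGFBP6. A downward stretch of chromosome 17 from 78852977 to 81295547 (10 genes, -0.53) holds TIMP2 and GAA.

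On the X chromosome 1 interval held mostly genes below 0, and its ends were set after the values were seen. From MID1IP1 to ZXDB (GRCh38, 38801432 to 57597545), 49 of 55 genes with at least 5 FPKM lay below 0 (median -0.42). Of the 51 genes before it 28 lay below 0 (median -0.06), and of the 167 after it 81 did (median 0.00). The ubiquitin ligase HUWE1 was at 38.4 and 14.5 FPKM (-1.35), TSPYL2 at 11.2 and 3.39 FPKM (-1.47) and the proton pump subunit ATP6AP2 at 39.5 and 16.02 FPKM (-1.25). In BHT-101 and FTC-133 the same stretch had a median of -0.05 in each.

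**Figure D5:**
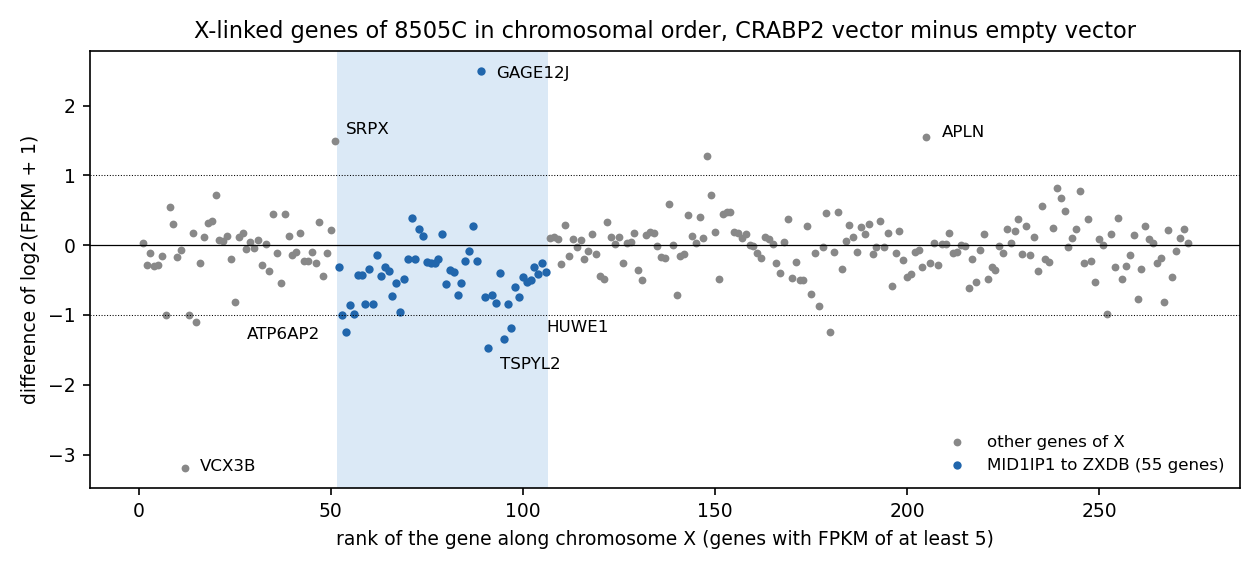
Each point is an X-linked gene with at least 5 FPKM, placed by its rank along the chromosome (horizontal) and its difference of log2(FPKM + 1) in 8505C (vertical). In the shaded stretch from MID1IP1 to ZXDB 49 of 55 genes lie below 0, with GAGE12J above 2 among the 6 above it, while genes on either side scatter around 0.

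Cancer-testis antigens, which are normally silent outside the germ line, gave differences in both directions on the same chromosome. VCX3B was at 12.4 FPKM under the empty vector against 0.462 FPKM under the CRABP2 vector (-3.19), VCX at 3.86 and 0.0429 FPKM (-2.22) and VCX3A at 3.91 and 0.319 FPKM (-1.90). GAGE12J was at 0.404 and 6.95 FPKM (2.50), and SPANXB1 at 0 and 2.04 FPKM (1.60). MAGEA3, the most abundant, was at 72.7 and 86.6 FPKM (0.25). VCX, GAGE and SPANX genes belong to families of near-identical copies, so their reads cannot be assigned with certainty. Without such families the counts past the size rule were 128 higher and 117 lower.

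The same genes were then read in the lines in which CRABP2 was lowered, which share no library with 8505C. With siCRABP2, 0.152% of measured genes were higher and 0.0285% lower by at least 1 in BHT-101, and 1.68% higher and 1.32% lower in FTC-133. Of the 130 genes higher in 8505C, 92 were measured in FTC-133, of which 5 were lower (CRABP2, DKK1, ID3, APLN and PRIM1) and 8 were higher with siCRABP2. The 5 are 3.85% of the 130 and the 8 are 6.15%. CRABP2 is among the 5 by design, since it was altered in both lines. Of the 121 genes lower in 8505C, 88 were measured in FTC-133, of which 12 were higher and 2 lower with siCRABP2. The 12 were CXCL1, CXCL8, IL1A, IL1B, IL6, CD55, BST2, NOTCH3, SLC7A5, C15orf48, PANX2 and TNFRSF9. They are 9.92% of the 121 genes lower in 8505C and 6.52% of the 184 genes higher in FTC-133. The 2 genes lower in both are 1.65% of the 121. Over all 10234 genes measured in 8505C, 1.40% were higher and 0.870% lower by at least 1 with siCRABP2 in FTC-133.

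The size of the cytokine differences was larger in FTC-133 and began from lower levels. CXCL8 was at 2.72 FPKM with siControl and 90.3 FPKM with siCRABP2 there (4.62), CXCL1 at 20.5 and 216 FPKM (3.33) and IL1B at 0.520 and 9.01 FPKM (2.72). In BHT-101 CXCL8 was at 7.49 and 8.92 FPKM (0.22) and IL1B was below 1 FPKM in both libraries. Of the 121 genes lower in 8505C, 76 were measured in BHT-101, where the complement proteases C1R (32.2 and 75.1 FPKM) and C1S (28.6 and 65.4 FPKM) were higher with siCRABP2 and none was lower. Of the 130 higher genes 85 were measured in BHT-101, and CRABP2 was the 1 that was lower. The median difference over the measured genes of these sets was 0.04 (higher in 8505C) and -0.06 (lower in 8505C) in FTC-133, and 0.00 and -0.02 in BHT-101.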

How the data were processed

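RNA sequencing libraries were grouped by their titles, with 1 library for each of 6 conditions. The authors deposited FPKM for 58884 gene identifiers in 1 table. Per the submitters' processing notes, the build was GRCh38 and the tools included FastQC, Trimmomatic 0.38 and featureCounts 2.0.0. Not given in the sources used here were the aligner, the annotation release and the strand setting. Reads of antisense pairs therefore cannot be separated, and those of near-identical copies are uncertain. Gene types, positions and exon lengths were taken from GENCODE release 29, which may not be the release the authors used.

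Differences of log2(FPKM + 1) between 2 libraries of a line were computed over protein-coding genes with at least 1 FPKM in 1 or both, with Python 3.11.15, numpy 2.4.6, pandas 2.3.3, scipy 1.17.1 and matplotlib 3.10.9. A gene was called by size at a difference of at least 1. With 1 library a side there are no tests across genes. Reads were recovered from the steps of the FPKM values: at a tolerance of 0.001 reads, 74.9% of 33848 genes above 0 gave whole reads with the release 29 length and 97.9% with that or another length found by search. Read ratios have 95% exact (Clopper-Pearson) intervals, which cover counting error only. The script was tested on simulated data.

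The gene set compared and the 45 gene lists (1102 entries, 1090 distinct genes, all matched) were chosen with earlier results of these data known. Named were CRABP2, the 20 largest differences in each direction and the 10 highest levels among genes with at least 5 FPKM, in each list up to 6 measured genes of largest difference or highest level, and 3 non-coding genes in each direction with an exon length of at least 500 bases. Further list members, genes of the chromosome stretches, and genes shared with the other lines were named after their values were seen. Promoters came from RefSeq tables on GRCh38.p14. Alternatives were other pseudocounts, scalings, filters and size rules, the removal of gene families or chromosome stretches, and the removal of a trend on exon length. The last, the filter on both libraries and the stretches were chosen after seeing the data.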

Additional observations from a re-analysis of the deposited data

Results flagged for a closer look

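Among protein-coding genes, 8 were higher by at least 1 both with the CRABP2 vector in 8505C and with siCRABP2 in FTC-133. Their differences in FTC-133 were 1.70 for CTSL, 2.02 for DUSP5, 1.14 for KCNK1, 1.28 for KRT17, 1.31 for SPHK1, 1.24 for THBD, 1.86 for TM4SF19 and 2.02 for TMEM158. The secreted complement-like protein C1QL1 (-1.31) and the syndecan SDC3 (-1.18) were lower in both comparisons. Another 17 genes passed the size rule in both lines with opposite signs, 5 of them (CRABP2 itself included) higher and 12 lower in 8505C. The 8 genes higher in both are 6.15% of the 130 genes higher in 8505C. Over all 10234 genes measured in 8505C, 1.40% were higher by at least 1 with siCRABP2 in FTC-133. With 1 library in each condition, the difference between the lines was not tested.

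Outside the protein-coding genes, 3 non-coding genes were higher with the CRABP2 vector and were chosen by the size of their difference. LINC01312 was at 1.38 FPKM under the empty vector against 9.23 FPKM under the CRABP2 vector, LNCAROD at 5.65 and 18.3 FPKM, and the pseudogene BMS1P10 at 2.71 and 8.85 FPKM. BMS1P10 is a copy of a coding gene, so its reads are uncertain.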

How the results depend on the processing

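With a pseudocount of 0.1, 290 genes were higher and 241 lower, and CRABP2 differed by 5.75. With a pseudocount of 0.5, 206 were higher. With FPKM of at least 5, 86 were higher. A 1.5-fold rule on FPKM + 1 gave 608 higher and 483 lower genes, and a 4-fold rule on FPKM + 1 gave 17 and 6. The higher share of called genes was 51.8%, against 73.9% at 4-fold on FPKM + 1 and 44.7% (110 higher, 136 lower) with the exon length trend removed. The other 29 values of these 2 counts and of CRABP2 stayed within 1.5 times of the count, or within the margin of the counting interval for CRABP2. Of 395 list medians recomputed, 349 moved by less than 0.1, and of 435 values of named genes 365 stayed within the margin of their own counting interval. No value past the size rule changed sign, while MT-CO3 went from -0.59 to 0.11 under quantile normalization. No paired analysis was possible because each condition has 1 library, and for the same reason no replicate could be left out. With 1 library a side, culture-to-culture spread is unknown, and genes with few reads are limited by counting error.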

Other observations

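Non-coding genes were measured in 1485 cases, of which 85 were higher and 97 lower by at least 1 with the CRABP2 vector. Among measured protein-coding genes 1.27% were higher and 1.18% lower. These non-coding counts had no filter on length or reads, so short genes with few reads can be among them. The pseudogene OR10D4P had 252 reads (11.6 FPKM) with the empty vector and 0 reads with the CRABP2 vector, and 0 reads in all 4 libraries of the other lines. The pseudogene AP000769.1 was at 49.0 and 13.2 FPKM (-1.82), and the long non-coding RNA AC091563.1 at 6.69 and 1.75 FPKM (-1.49).

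Of the 130 protein-coding genes higher in 8505C, 25 were below 1 FPKM in all 4 libraries of the other lines, and 23 of the 121 lower genes were. With the CRABP2 vector, 76 of the 130 higher genes stood above every library of the other lines, against 39 with the empty vector. Of the 121 lower genes, 86 stood above every library of the other lines under the empty vector and 44 under the CRABP2 vector. Which vector has the larger count in each set is fixed by the rule that picked the genes. None of the counts in this paragraph was made over all measured genes, so they describe these sets only.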
